A study of Homo sapiens with 4 samples.

Results

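Interferon-stimulated genes, 48 in all, were followed here. They were picked by gene symbol out of 19775 genes that carry at least 1 probe set of their own. The rule itself held no value of these arrays, but the members were chosen with earlier results of these data known. The cells were Raji, a long-established line from a Burkitt lymphoma, a B cell tumour, which carries Epstein-Barr virus. A wild-type control clone was measured on 2 Affymetrix arrays, and so was a clone with downregulated DLEU1, a long non-coding RNA, made with TALENs (engineered nucleases directed to a DNA sequence). The TALEN treatment note stands on all 4 samples, the control included, and the sources used here do not give what the control clone received. Cells of both groups grew in RPMI medium with serum, and the labels name no interferon, virus or other stimulus. Each genotype was 1 clone, and nothing says that the duplicates were separate cultures, so the p-values cover array-to-array spread that may be technical.

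Probe sets were found for 47 of the 48 members, 82 probe sets in all. DDX58 appeared under its current symbol RIGI, and no probe set listed STAT2 alone in the annotation used here. Each gene is given by its brightest probe set, that with the highest mean log2 value over the arrays. Of the 47, 35 passed the filter on dim probe sets and were tested, and 12 did not. The filter used the mean over all arrays, so a gene that was high in either clone was the more likely to be tested, and counts over the tested members carry this limit.

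Interferons are secreted when a cell senses viral nucleic acid, and they bind receptors whose kinases JAK1 and TYK2 activate transcription factors. STAT2 and IRF9 are subunits of the complex ISGF3, which binds a DNA element called the interferon-stimulated response element, ISRE, beside the genes it switches on. The products of these genes bind or degrade viral RNA, block entry and release of virus, or tag proteins with the ubiquitin-like ISG15. B cells infected by Epstein-Barr virus can express part of this programme without added interferon.

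The arrays differed in brightness. Trimmed mean intensities (2% at each end) were 163 and 131 for the control clone and 172 and 197 for the downregulated clone, so the arrays had no common scale and control replicate 2 was the dimmest. The median log2 change of all tested genes was 0.19 as deposited and -0.01 after quantile normalization. Changes of named genes are given as deposited first and then after quantile normalization, while those of second probe sets and of fits without an array are as deposited. They are on the scale of log2(intensity + 16), which understates the change of dim genes, so a larger or smaller added constant moves their values. DLEU1 itself read 1363.4 and 1023.8 in the control clone against 523.7 and 616.9, a log2 change of -1.04 (SE 0.24, limma adjusted p = 3.2e-04, and -1.38 after quantile normalization). Its call was lost without replicate 1 (adjusted p = 0.218) or replicate 2 (adjusted p = 0.140) of the downregulated clone. The 11 B cell markers with a probe set were all bright enough to be tested, with summed intensities of 27425.1 and 23290 in the control and 25088.6 and 28067.4 in the downregulated clone. BANK1 was higher on both scales (1.02 and 0.69) and the other 10 did not pass as deposited. After quantile normalization 8 of the 11 (72.7%) were lower, with a median of -0.27, beside 20.6% and -0.01 for all tested genes. That scale thus put most B cell markers lower together with 9 of the 35 tested members (25.7%). The part of either in the other was not tested. The 13 T and NK cell markers summed to 176.3 and 161 against 257.8 and 300.5, with CD247 and TRAT1 higher and CD3D, CD3E and CD3G at 20 or less on every array. Sums over 10 monocyte and macrophage markers were 124.6 and 94.1 against 115.1 and 77.2. Sums over 7 plasmacytoid dendritic cell markers were 4647 and 3958 against 3939.1 and 4125, almost all from TCF4, which B cells also express, with CLEC4C and LILRA4 at 19.5 or less. In bulk RNA a change in the share of cells and a change of RNA per cell cannot be told apart.

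Interferon-stimulated genes did not move together between the clones. As deposited, 10 of the 35 tested members were higher in the downregulated clone and 4 lower, or 28.6% and 11.4%, beside 20.3% and 5.74% of 13284 tested genes. After quantile normalization 10 were higher and 9 lower, 28.6% and 25.7%, beside 20.7% and 20.6% of all tested genes. Shares of members higher lay only somewhat above those of all genes on both scales. All 10 rises and 4 falls passed on both scales, which 19.2% and 5.38% of all genes did. The median log2 change of the tested members was -0.07 as deposited and -0.25 after quantile normalization, below the 0.19 and -0.01 of all genes. This median depended on which members were counted. It was 0.15 without probe sets that carry the cross-hybridisation suffix _x_at and 0.40 with the dim filter at the 60th percentile. The median of all genes under these settings is not given, so these values cannot be set against 0.19. Both arrays of the downregulated clone lay above both control arrays for 15 tested members and below them for 12, where 43.3% and 17.8% of all tested genes did so. Of the 14 calls, those of IFIT3 and IFIT5 held whichever array was left out. The number of members higher ran from 2 without replicate 2 of the downregulated clone to 13 without control replicate 1, and was 6 without control replicate 2 or without replicate 1 of the downregulated clone. The number lower was 1 without replicate 1 of the downregulated clone and 0 by limma without its replicate 2 (5 at an unadjusted p under 0.05), against 3 without control replicate 1 and 4 without control replicate 2. The number of all probe sets past the threshold was likewise lowest without replicate 2 of the downregulated clone and highest without control replicate 1. Fits without an array of a clone assume that its lone array varies like those of the other clone. As deposited limma's prior degrees of freedom were infinite, so each test used a spread estimated from all probe sets of like brightness.

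**Figure D1:**
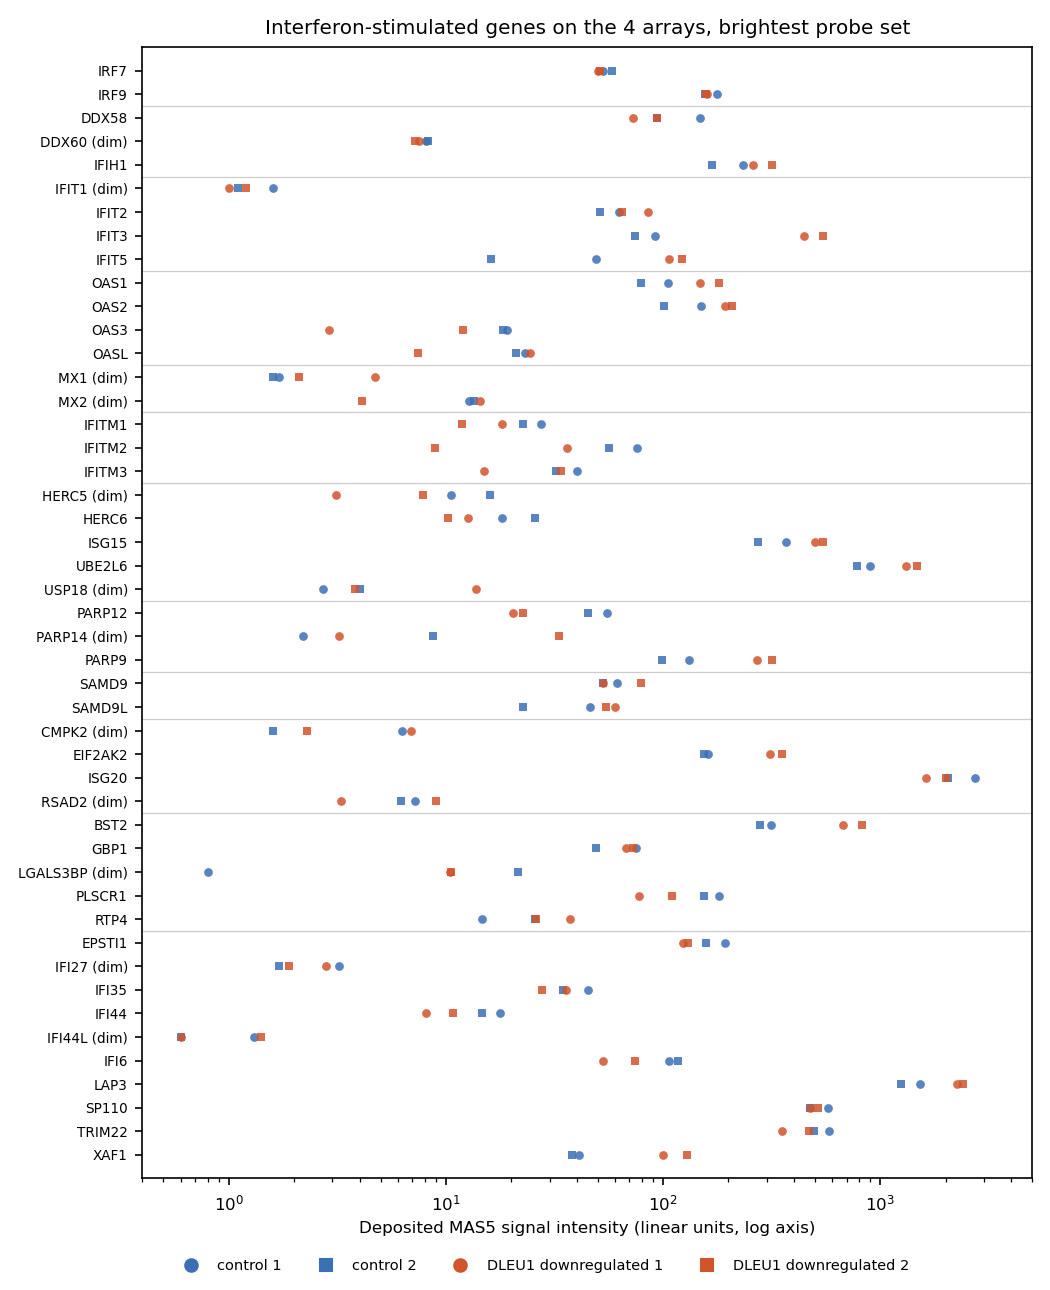
Deposited MAS5 signal intensity (log axis) of the brightest probe set of 47 members on the 4 arrays, grouped by role with grey lines between roles, and marked dim where the gene was not tested. Blue points are control and orange points DLEU1-downregulated arrays, circles replicate 1 and squares replicate 2; IFIT3 is clearly apart (91.5 and 74.2 against 446.3 and 547.2), while IFIT1 and IFI44L stay under 2 on all arrays. Levels of different probe sets are not comparable.

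Whether the members share the ISRE was read from their RefSeq promoter windows (GRCh38.p14), which span 250 bases before to 50 bases after a start site. The ISRE core was searched as GAAA, then any 2 bases, then GAAA on both strands, and the core bound by STAT dimers, GAS, as TTCNNNGAA, which reads the same on both strands. The 2 motifs can overlap each other. Windows were found for 40 members, and 29 of them (72.5%) held an ISRE core, against 1195 of 27305 genes (4.38%) and 3.57% of all 35116 windows. GAS cores were in windows of 12 of the 40 members (30%), against 9.38% of all genes. Among members called higher 7 of 10 held an ISRE core, among those called lower 3 of 3, among those tested and not past the threshold 10 of 16, and among those too dim to be tested 9 of 10. Members with very low signal thus held the core as well as members that rose. A match of these letters is a description and not a binding site.

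**Figure D2:**
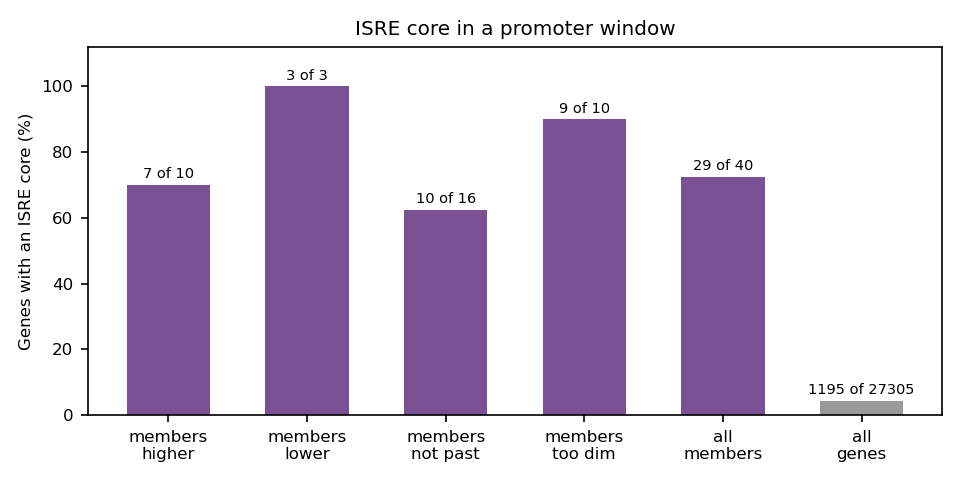
Share of genes (%) with an ISRE core in at least 1 promoter window, for members by their call as deposited, for all members and for all genes, with the counts above the bars. The members range from 62.5% to 100% and all genes stand at 4.38%.

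The stretches that follow show the cores in lower case sequence, 5′ to 3′ on the gene's strand, with each ISRE core in capitals. They were chosen to set the 2 members with the firmest rises beside a dim member of the same cluster (IFIT1), a divergent gene pair that rose together, 2 other risen members, a fallen member (IFI6) and another dim one (RSAD2).
IFIT3, first start site, chr10:89327817-89327916, plus strand: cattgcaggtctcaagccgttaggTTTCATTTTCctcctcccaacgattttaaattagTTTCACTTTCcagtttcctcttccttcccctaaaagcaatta
IFIT3, second start site, chr10:89332409-89332508, plus strand: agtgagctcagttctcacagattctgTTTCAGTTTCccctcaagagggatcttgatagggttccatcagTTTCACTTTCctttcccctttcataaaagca
IFIT5, chr10:89414488-89414563, plus strand: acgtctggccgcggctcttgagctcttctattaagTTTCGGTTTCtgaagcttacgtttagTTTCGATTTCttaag
IFIT1, chr10:89392483-89392557, plus strand: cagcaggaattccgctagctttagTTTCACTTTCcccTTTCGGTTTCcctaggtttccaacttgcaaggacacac
PARP9 and DTX3L, chr3:122564280-122564349, plus strand: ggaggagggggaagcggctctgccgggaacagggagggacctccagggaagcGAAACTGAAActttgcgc
BST2, chr19:17405711-17405785, minus strand: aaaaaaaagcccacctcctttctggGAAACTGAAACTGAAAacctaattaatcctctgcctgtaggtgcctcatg
ISG15, chr1:1013357-1013431, plus strand: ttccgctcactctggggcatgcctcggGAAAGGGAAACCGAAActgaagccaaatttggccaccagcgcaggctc
IFI6, chr1:27672268-27672367, minus strand: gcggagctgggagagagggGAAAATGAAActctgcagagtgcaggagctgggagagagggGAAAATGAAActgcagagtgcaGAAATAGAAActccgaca
RSAD2, chr2:6877607-6877681, plus strand: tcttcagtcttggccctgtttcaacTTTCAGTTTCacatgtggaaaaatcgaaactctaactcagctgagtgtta
IFIT3, IFIT5 and IFIT1 each show a pair of cores, and in BST2 and ISG15 both cores overlap each other. The IFIT5 window holds 1 more core, just past the stretch shown and across the start site. IFI6 also has 3 cores and was lower in the downregulated clone.

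Among the transcription factors of the response, no member passed the threshold as deposited. IRF9, the DNA-binding subunit of ISGF3, read 177.6 and 156.6 in the control clone and 159.6 and 157.4 in the downregulated clone (log2 change -0.07, limma adjusted p = 0.894, and -0.34 at adjusted p = 0.0696 after quantile normalization). IRF7, which amplifies interferon production, read 52.8 and 58.4 against 50 and 51 (-0.11, adjusted p = 0.823, and -0.25 after quantile normalization). The arrays of both clones thus lay close for these 2 factors. A further probe set is listed for both RNF31 and IRF9 and cannot be assigned to either. It rose from 92.8 and 53.8 to 157.4 and 154.3 (0.98, adjusted p = 0.00144, and 0.76 after quantile normalization).

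The sensors of viral RNA likewise had no call as deposited. DDX58, now RIGI, which recognises RNA with a triphosphate end, read 148.6 and 94.2 against 72.9 and 94.2 (log2 change -0.44, limma adjusted p = 0.207), and the groups touched at 94.2. It was lower after quantile normalization (-0.67, adjusted p = 0.0106), and as deposited it passed without control replicate 2 (-0.73, adjusted p = 0.0358). This probe set carries the suffix _x_at; the other 2 had log2 changes of -0.60 and -0.32. IFIH1, a sensor of long double-stranded RNA, read 233.4 and 167.2 against 258.7 and 316.8 (0.50, adjusted p = 0.159, and 0.20 after quantile normalization), and its other 2 probe sets also had positive values that did not pass. DDX60, a helicase linked to RNA sensing, was too dim to be tested at 7.2 to 8.3.

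The IFIT family, whose proteins bind viral RNA and hinder its translation, held the largest rise of all tested members. IFIT3 read 91.5 and 74.2 in the control clone and 446.3 and 547.2 in the downregulated clone, a mean of 82.85 ± 12.2 against 496.8 ± 71.3 (SD, n = 2 arrays each). Every array of the downregulated clone was far above both control arrays. The difference was 6-fold, with a log2 change of 2.37 (SE 0.26, limma adjusted p = 3.25e-17, and 2.11 at adjusted p = 3.1e-06 after quantile normalization). Its second probe set read 75.1 and 63.9 against 203.7 and 239.3 and rose as well, by 1.47, where 17.2% of all tested probe sets were higher and 5.11% lower (17.1% and 16.7% after quantile normalization). IFIT5, which binds RNA as a single protein, read 49.3 and 16.2 against 106.2 and 121.7, a 3.48-fold difference (log2 change 1.5, adjusted p = 2.38e-07, and 1.40 at adjusted p = 0.00406 after quantile normalization). The control arrays of IFIT5 lay apart from each other, so its change was 2.01 when the first of them was left out and 0.99 when the second was, and the call held in both. The second IFIT5 probe set rose by 1.28.

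Of the other members in the same cluster on chromosome 10, IFIT2 did not pass and IFIT1 was too dim. IFIT2 read 62.9 and 51.3 against 85.4 and 64.4, with a log2 change of 0.31 (limma adjusted p = 0.418, and 0.14 after quantile normalization). Its groups did not overlap as deposited, but they did after quantile normalization (60.7 and 61.8 against 83.9 and 57.1). IFIT1, among the genes most strongly induced by interferon in many cells, read 1.6 and 1.1 against 1 and 1.2 and was too dim to be tested. Neither clone thus had more than trace IFIT1 signal on these arrays, although its promoter window holds 2 ISRE cores as those of IFIT3 do.

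The OAS family makes the signal that activates the RNA-degrading enzyme RNase L. OAS1 read 105.1 and 78.9 in the control clone and 148.5 and 180.6 in the downregulated clone, a 1.79-fold rise (log2 change 0.75, limma adjusted p = 0.0209, and 0.50 at adjusted p = 0.0156 after quantile normalization). Its second probe set had 0.45 and did not pass. OAS2 read 149.4 and 101.1 against 193.6 and 207.3 (0.64, limma adjusted p = 0.0581), so its groups did not overlap. It missed the threshold on both scales, with adjusted p = 0.0523 after quantile normalization. An almost equally bright OAS2 probe set read 178.4 and 111.9 against 161.6 and 172.5, so that its groups overlapped (0.21, limma adjusted p = 0.61). The third OAS2 probe set had 0.32 and did not pass. OAS3 read 19 and 18.3 against 2.9 and 12 (-0.59, adjusted p = 0.171, and -0.54 after quantile normalization), and OASL, a relative without the enzyme activity, read 23 and 21 against 24.4 and 7.4 (-0.31, adjusted p = 0.510, and -0.25 after quantile normalization). The OAS1 call was lost without control replicate 2 (adjusted p = 0.131) and without replicate 1 (0.182) or replicate 2 (0.485) of the downregulated clone.

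The MX GTPases, which trap viral nucleoproteins, were too dim to be tested. MX1 read 1.7 and 1.6 against 4.7 and 2.1, and MX2 read 12.8 and 13.4 against 14.3 and 4.1. Low signal of MX1 in both clones sat beside an ISRE core in its promoter windows, as for IFIT1.

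IFITM proteins sit in membranes and block the entry of enveloped viruses. IFITM2 read 75.9 and 56.3 in the control clone and 36 and 8.9 in the downregulated clone (log2 change -1.18, SE 0.26, limma adjusted p = 1.59e-04, and -1.24 at adjusted p = 0.0148 after quantile normalization). Both downregulated arrays were lower, but they lay far apart, and the call was lost without replicate 2 of that clone (-0.65, adjusted p = 0.388). IFITM1 read 27.5 and 22.6 against 18.1 and 11.9 (-0.41, adjusted p = 0.337, and -0.37 after quantile normalization), and IFITM3 read 40.2 and 32.1 against 15 and 33.7 (-0.41, adjusted p = 0.304, and -0.45 after quantile normalization). The 3 genes are close copies and neighbours on chromosome 11, and the IFITM2 and IFITM3 probe sets carry the suffix _x_at, and whether their signals are shared was not tested.

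Among ISG15, the enzymes that attach or remove it, and HERC6, which was grouped with them here, 2 members rose and 2 were too dim. HERC6 was tested and did not pass. ISG15, the ubiquitin-like modifier, read 366.3 and 272.8 in the control clone and 498.6 and 544.6 in the downregulated clone, a 1.63-fold rise (log2 change 0.69, limma adjusted p = 0.0354, and 0.36 at adjusted p = 0.0106 after quantile normalization). UBE2L6, the conjugating enzyme of ISG15, read 901.6 and 781 against 1313.5 and 1481.9, a 1.66-fold rise (0.72, adjusted p = 0.0134, and 0.37 at adjusted p = 0.00183 after quantile normalization). Modifier and conjugating enzyme thus rose to a like degree. HERC5, the main ligase for ISG15, was too dim to be tested (10.5 and 15.9 against 3.1 and 7.8), as was USP18, which removes ISG15 and dampens receptor signalling (2.7 and 4 against 13.7 and 3.8). HERC6 read 18.2 and 25.8 against 12.6 and 10.2 (-0.47, adjusted p = 0.279, and -0.42 after quantile normalization). Without control replicate 2 the calls of ISG15 (adjusted p = 0.244) and UBE2L6 (0.107) were lost. They were also lost without replicate 1 (0.361 and 0.291) or replicate 2 (0.572 and 0.541) of the downregulated clone.

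The PARP members, ADP-ribosyltransferases of the interferon response, changed in opposite directions. PARP9, which works as a partner of the ubiquitin ligase DTX3L, read 132 and 99 in the control clone and 271 and 316.7 in the downregulated clone. This was a 2.54-fold rise (log2 change 1.24, limma adjusted p = 4.07e-05, and 0.97 at adjusted p = 1.92e-04 after quantile normalization), and its second probe set rose by 1.05. DTX3L, which is no member, read 514.5 and 398.1 against 938.7 and 1068.4 (1.12, adjusted p = 1.25e-04, and 0.76 after quantile normalization). The genes are divergent: a RefSeq start site of PARP9 lies 38 bases from that of DTX3L, and the same ISRE core at chr3:122564332-122564341 falls in both windows. PARP12, which restrains viral translation, read 55.2 and 45.1 against 20.3 and 22.7, a 2.33-fold fall (-0.82, adjusted p = 0.0157, and -0.87 at adjusted p = 0.00828 after quantile normalization). PARP14 was too dim to be tested (2.2 and 8.7 against 3.2 and 33.3). The PARP9 call was lost without replicate 2 of the downregulated clone (adjusted p = 0.113). DTX3L lost its call without replicate 1 (0.0970) or replicate 2 (0.240) of that clone. For PARP12 only the fit without control replicate 2 kept the call, and it was lost without control replicate 1 (0.0707) and without replicate 1 (0.193) or 2 (0.178) of the downregulated clone.

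SAMD9 and SAMD9L, neighbouring genes whose proteins restrict poxviruses and slow growth, did not pass. SAMD9 read 61.6 and 52.6 against 53 and 78.8 (log2 change 0.15, limma adjusted p = 0.737, and -0.01 after quantile normalization). SAMD9L read 46.1 and 22.7 against 60.2 and 54.7 (0.58, adjusted p = 0.0919, and 0.51 after quantile normalization), so that its groups did not overlap.

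Of the enzymes that act on RNA and nucleotides, EIF2AK2 rose. It encodes PKR, a kinase that stops translation when it meets double-stranded RNA. PKR signal read 161 and 153.7 in the control clone and 311.9 and 353.8 in the downregulated clone, a 2.12-fold difference (log2 change 1.01, limma adjusted p = 0.00137, and 0.71 at adjusted p = 0.00143 after quantile normalization). All 3 tested EIF2AK2 probe sets rose, by 0.73 to 1.17, and the call of the brightest was lost without replicate 1 (adjusted p = 0.120) or replicate 2 (0.279) of the downregulated clone. ISG20, an RNA exonuclease, read 2731.3 and 2051.9 against 1629.2 and 2003.6 (-0.39, adjusted p = 0.181). After quantile normalization ISG20 fell by 0.75 (adjusted p = 2.57e-05). RSAD2, which makes the antiviral nucleotide ddhCTP, and its genomic neighbour CMPK2 were too dim to be tested, at 3.3 to 9 and 1.6 to 6.9.

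Of the membrane and secreted factors, BST2, also called tetherin, which holds budding virus at the cell surface, rose. It read 312.9 and 279.5 in the control clone and 672.4 and 820 in the downregulated clone, a mean of 296.2 ± 23.6 against 746.2 ± 104 (SD, n = 2 arrays each). The difference was 2.52-fold (log2 change 1.28, SE 0.25, limma adjusted p = 1.45e-05, and 0.95 at adjusted p = 6.15e-05 after quantile normalization), and the call was lost without replicate 2 of the downregulated clone (adjusted p = 0.168). PLSCR1, a phospholipid scramblase, went the other way. It read 180 and 154.3 against 77.1 and 110, a 1.79-fold fall (-0.75, adjusted p = 0.0195, and -1.0 at adjusted p = 6.99e-04 after quantile normalization). Its second tested probe set had -0.08, and the call of the brightest was lost without replicate 1 (0.493) or replicate 2 (0.189) of the downregulated clone. GBP1, a guanylate-binding GTPase that interferon gamma induces strongly, read 75.1 and 49.1 against 67.2 and 72.5 (0.16, adjusted p = 0.722, and -0.01 after quantile normalization). RTP4 read 14.6 and 25.6 against 37.3 and 26 (0.41, adjusted p = 0.316, and 0.40 after quantile normalization), and the secreted lectin-binding LGALS3BP was too dim to be tested.

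Among the remaining members XAF1, an antagonist of the apoptosis inhibitor XIAP, rose. It read 40.9 and 38.2 in the control clone and 100.1 and 128.5 in the downregulated clone, a 2.89-fold difference (log2 change 1.22, SE 0.25, limma adjusted p = 3.79e-05, and 1.06 at adjusted p = 0.00136 after quantile normalization). The second XAF1 probe set rose by 0.96 and the third had 0.35 without passing; without replicate 2 of the downregulated clone the call was lost (adjusted p = 0.0707). LAP3, a leucine aminopeptidase that trims peptides, read 1527.3 and 1243.7 against 2249.5 and 2396.6, a 1.68-fold rise (0.75, adjusted p = 0.00492, and 0.39 at adjusted p = 7.32e-04 after quantile normalization). IFI6, a mitochondrial and endoplasmic reticulum protein, fell instead. It read 106.7 and 116.5 against 52.9 and 74.6, a 1.75-fold difference (-0.69, adjusted p = 0.0331, and -0.90 at adjusted p = 0.00523 after quantile normalization). LAP3 lost its call without control replicate 2 (adjusted p = 0.109) and without replicate 1 (0.259) or 2 (0.425) of the downregulated clone. IFI6 did so in the same fits (0.0817, 0.499 and 0.204).

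A further 3 of these members were lower only after quantile normalization. TRIM22, a ubiquitin ligase, read 582.7 and 494 against 351.2 and 469.7 (-0.39, limma adjusted p = 0.287, and -0.72 at adjusted p = 3.74e-04 after quantile normalization). SP110, a nuclear body protein, read 577.7 and 476.4 against 475.1 and 516.1 (-0.08, adjusted p = 0.867, and -0.42 with adjusted p = 0.00299), and the groups overlapped as deposited. EPSTI1 read 192.9 and 158.2 against 124.1 and 130.2 (-0.41, adjusted p = 0.254, and -0.68 with adjusted p = 0.00228), while its second probe set had 0.40 and did not pass. IFI35 and IFI44 did not pass on either scale (-0.23 and -0.34 as deposited, -0.28 and -0.27 after quantile normalization). IFI27 and IFI44L were too dim to be tested, with 3.2 the highest value of IFI27 and 1.4 that of IFI44L.

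**Figure D3:**
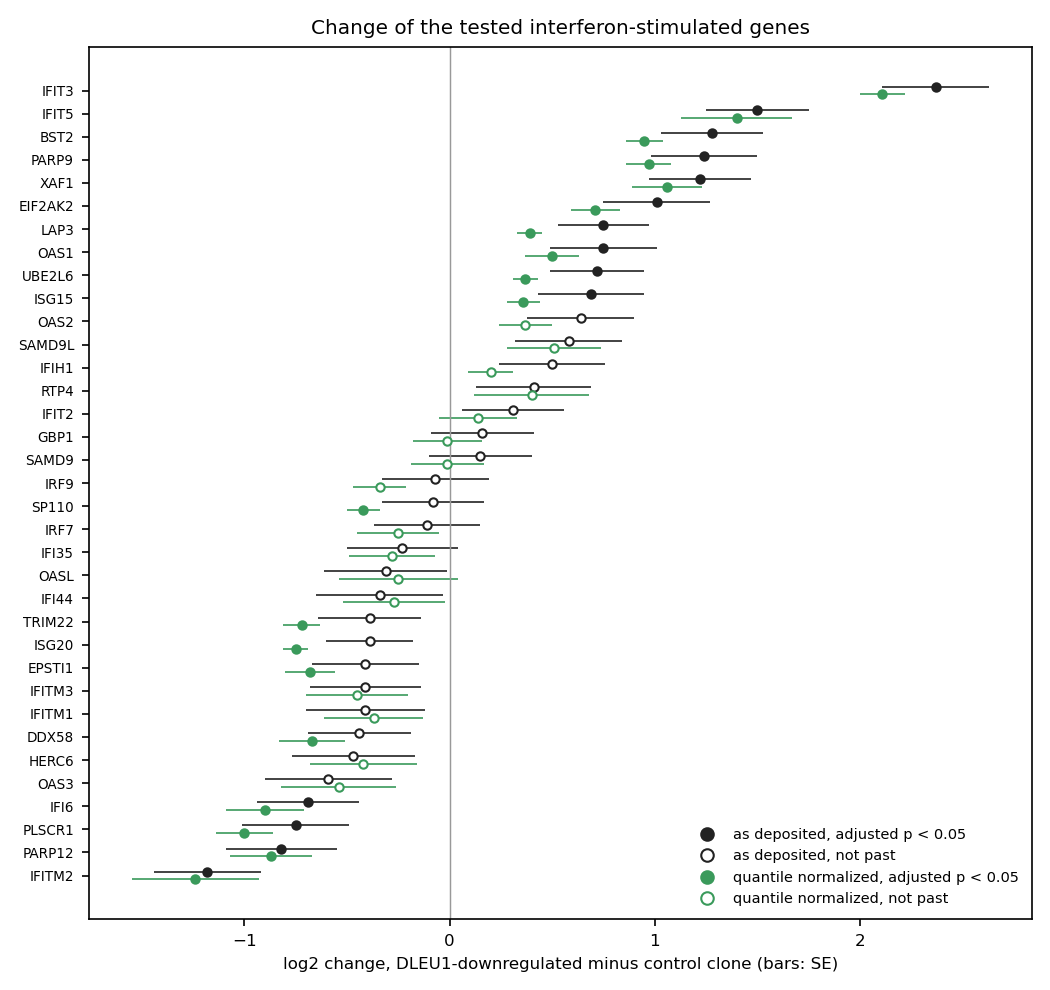
Log2 change (DLEU1-downregulated minus control clone) with its SE for the 35 tested members, as deposited in black and after quantile normalization in green, filled where limma's adjusted p was under 0.05. The 10 rises run from 0.69 (ISG15) to 2.37 (IFIT3) as deposited and the 4 falls from -0.69 (IFI6) to -1.18 (IFITM2).

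The 12 members that were not tested were IFI27, IFI44L, IFIT1, MX1, MX2, RSAD2, USP18, HERC5, CMPK2, PARP14, DDX60 and LGALS3BP. Their brightest probe sets read 0.6 to 33.3 over all arrays, and 10 of the 12 stayed under 16 on every array. Several of them, such as IFIT1, MX1, RSAD2 and IFI44L, are commonly used to read out an interferon response. The files hold no detection calls, so it is unknown which of these signals were above background.

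**Figure D4:**
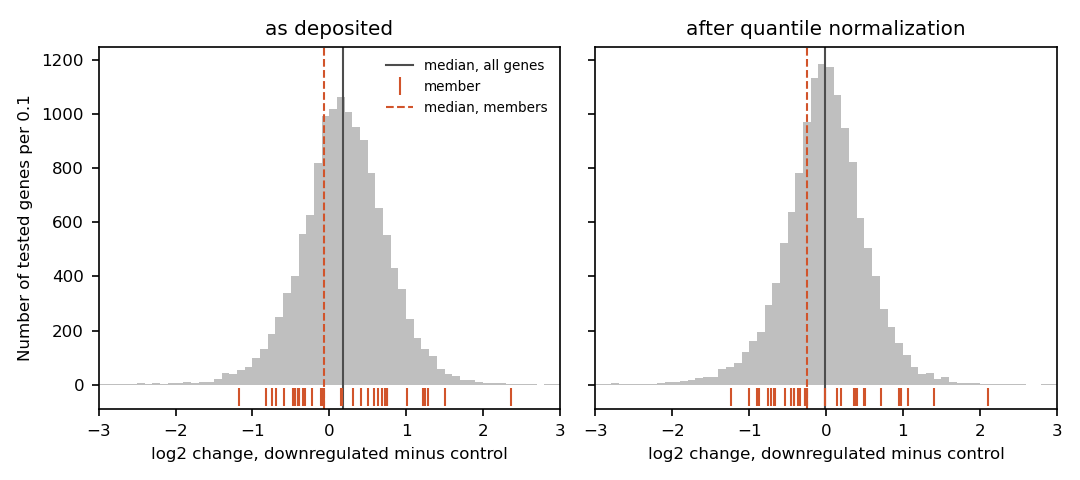
Histogram of the log2 change (downregulated minus control) of all tested genes, in bins of 0.1, as deposited (left) and after quantile normalization (right), with the 35 tested members as orange ticks. The solid line is the median of all genes (0.19 and -0.01) and the dashed line that of the members (-0.07 and -0.25); members lie on both sides.

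The wider pathway was followed through 6 lists of 122 genes outside the members, of which 113 had a probe set and 91 were tested. As deposited 31 were higher and 6 lower (34.1% and 6.59%), and after quantile normalization 31 of 92 were higher and 23 lower (33.7% and 25%), to be read against the same background shares. The number higher was 1 without replicate 2 of the downregulated clone, 5 without its replicate 1, 19 without control replicate 2 and 37 without control replicate 1. The number lower was 3 without replicate 2 of the downregulated clone and 5 or 6 in the other fits.

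Interferon genes themselves were dim. Of 18 ligand genes with a probe set 7 passed the filter on dim probe sets, and 2 of these were lower by limma. Most of the 7, IFNB1 and IFNA10 among them, passed through their control arrays, so nothing is read from their common sign. Of the 11 ligand genes not tested, at intensities of 0.2 to 24, 6 had the higher mean in the downregulated clone. IFNB1, the interferon that most cell types make first, read 45.2 and 29.4 in the control clone and 1 and 0.9 in the downregulated clone (log2 change -1.64, limma adjusted p = 4.36e-06, and -1.66 at adjusted p = 8.62e-04 after quantile normalization). IFNA10 read 38 and 51.3 against 12.1 and 11 (-1.13, adjusted p = 8.3e-04, and -1.16 after quantile normalization), in a probe set with the suffix _x_at, and lost its call without replicate 2 of the downregulated clone (adjusted p = 0.0571). Without replicate 1 or replicate 2 of the downregulated clone the IFNB1 change was -1.64 or -1.63. Without either control array its probe set was below the dim filter and not tested. Since IFNB1 entered the test through its control arrays, nothing is read from its call. The median intensities of all probe sets on the control arrays were 22.6 and 18.4, and whether either interferon was above background there is unknown. IFNA7 and IFNA16 had log2 changes of -0.73 and -0.59 that did not pass, and -0.71 and -0.51 after quantile normalization. Their probe sets also carry the suffix _x_at, and whether they share signal with that of IFNA10 was not tested.

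Of 9 tested receptor and kinase genes 2 were higher as deposited and the others did not pass, while after quantile normalization 2 were higher and 4 lower. IFNAR2, a chain of the type I interferon receptor, read 387.8 and 315.7 against 591.3 and 713.5 (log2 change 0.86, limma adjusted p = 0.0059, and 0.52 after quantile normalization), in a probe set with the suffix _x_at. TYK2, the kinase bound to the receptor's other chain, read 388.3 and 355.5 against 630.6 and 703.6 (0.82, adjusted p = 0.0096, and 0.48 after quantile normalization). Both lost the call without replicate 1 (adjusted p = 0.197 and 0.261) or replicate 2 (0.484 and 0.477) of the downregulated clone, and IFNAR2 also without control replicate 2 (0.0592). IFNGR2 had 0.39 (adjusted p = 0.223, and 0.04 after quantile normalization). IFNLR1, a receptor chain for lambda interferons, had -0.34 (adjusted p = 0.358) and was lower after quantile normalization (-0.69, adjusted p = 9.96e-04).

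Among 6 tested interferon regulatory factors outside the members, IRF4 and IRF5 were higher on both scales. IRF4, a plasma cell factor induced by NF-kB, read 198.3 and 187.4 against 379.3 and 408 (log2 change 0.97, limma adjusted p = 0.00211, and 0.66 after quantile normalization). IRF5, an inducer of inflammatory genes, read 79.7 and 65.8 against 135.6 and 177.4 (0.95, adjusted p = 0.00204, and 0.73 after quantile normalization). Both calls were lost without replicate 1 (adjusted p = 0.164 and 0.0563) or replicate 2 (0.296 and 0.299) of the downregulated clone. IRF1 had 0.19 (adjusted p = 0.653, and -0.15 after quantile normalization), and IRF8 had 0.20 (adjusted p = 0.546) as deposited but fell by 0.17 after quantile normalization (adjusted p = 0.0334).

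Genes of nucleic acid sensing gave 6 higher and 1 lower of 17 tested, with 6 and 5 after quantile normalization. TLR7, the endosomal receptor for single-stranded RNA, read 80.1 and 75.5 in the control clone and 262.3 and 345.2 in the downregulated clone, a 3.9-fold rise (log2 change 1.76, limma adjusted p = 1.24e-09, and 1.51 after quantile normalization) that held whichever array was left out. TLR9, its counterpart for DNA, read 82.4 and 68.2 against 192 and 197.3 (1.21, adjusted p = 5.19e-05, and 0.97 after quantile normalization). IRAK1, a kinase downstream of both receptors, read 1281.9 and 1061.2 against 2638.6 and 2883.9 (1.23, adjusted p = 6.09e-07, and 0.87 after quantile normalization). TLR7, TLR9 and IRAK1 thus lay above both control arrays on both arrays of the downregulated clone, as did 43.3% of all tested genes. They were named for the small p they had within this list, so nothing is read from their common direction. RNF135, a ubiquitin ligase that activates RIG-I, fell from 55.7 and 49.2 to 1.2 and 4.9 (-1.85, limma adjusted p = 2.08e-08, and -1.90 after quantile normalization). With 1 array left out its change was -1.99 to -1.71. RNF135 passed the dim filter through its control arrays. Whether its signal in the downregulated clone was above background is unknown. Calls of TLR9 (adjusted p = 0.0593) and IRAK1 (0.0915) were lost without replicate 2 of the downregulated clone.

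Of 11 tested inhibitors of the pathway 4 were higher as deposited and the others did not pass, with 4 higher and 2 lower after quantile normalization. SOCS1, a feedback inhibitor of the JAK kinases, read 122.5 and 88.4 against 201.6 and 293.7 (log2 change 1.11, limma adjusted p = 2.9e-04, and 0.84 after quantile normalization). IRF2BP2, a corepressor, rose by 0.95 (adjusted p = 8.21e-04, and 0.60 after quantile normalization). The phosphatases PTPN11 and PTPN1 rose by 0.80 and 0.76 (adjusted p = 0.00103 and 0.0205), and by 0.42 and 0.43 after quantile normalization. SOCS1 lost its call without replicate 2 of the downregulated clone (0.279), and the other 3 without either of its replicates (0.130 to 0.411). PTPN11 (0.0958) and PTPN1 (0.0941) also lost it without control replicate 2.

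Among 41 tested interferon-stimulated genes outside the members 17 were higher and 3 lower as deposited (41.5% and 7.32%). After quantile normalization 17 were higher and 8 lower (41.5% and 19.5%). Of all tested genes 20.3% and 5.74% were so as deposited, and 20.7% and 20.6% after quantile normalization. TAP1, a subunit of the peptide transporter for MHC class I, read 464.7 and 392.8 against 1149.7 and 1272.6 (log2 change 1.47, limma adjusted p = 1.53e-07, and 1.13 after quantile normalization). NMI, a partner of STAT proteins, read 489.1 and 387.4 against 1004 and 1099.9 (1.24, adjusted p = 1.54e-05, and 0.89 after quantile normalization), and SLFN11, which blocks stressed replication forks, read 245.8 and 222.7 against 525.5 and 604.5 (1.21, adjusted p = 6.09e-05, and 0.89 after quantile normalization). TRIM5, a retrovirus restriction factor, fell from 88.9 and 83.3 to 17.7 and 30.5 (-1.37, adjusted p = 4.75e-06, and -1.49 after quantile normalization), and held whichever array was left out. Without replicate 2 of the downregulated clone the calls of TAP1 (adjusted p = 0.0626), NMI (0.146) and SLFN11 (0.177) were lost, and those of NMI (0.0673) and SLFN11 (0.0640) also without its replicate 1. Genes of this list were found on both sides, and its share higher lay above that of all genes on both scales. The list was written with earlier results of these data known.

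**Figure D5:**
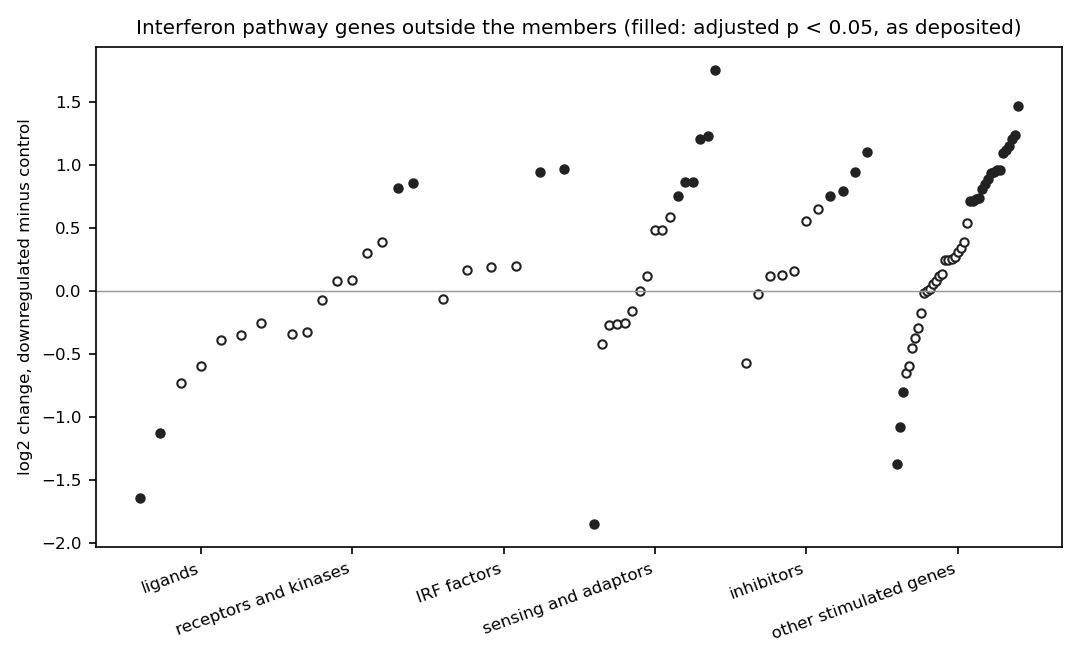
Log2 change (downregulated minus control, as deposited) of the 91 tested interferon pathway genes outside the members, ordered by value within each of the 6 lists and filled where limma's adjusted p was under 0.05. TLR7 (1.76) and RNF135 (-1.85) are the outermost points; the 11 dim ligand genes are not shown.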

How the data were processed

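Total RNA of 4 Raji samples was hybridised as biotinylated cRNA to HG-U133 Plus 2.0 arrays. The authors deposited linear signal intensity values made with MAS5, per the submitters' processing notes; the sources used here give no version, target intensity or detection call. Of the probe sets, 62 controls were left out. Intensities were used as deposited, as log2(value + 16), and 21845 dim probe sets below the 40th percentile of the mean log2 value were dropped, leaving 32768. Limma 3.58.1 in R 4.3.3 (lmFit, eBayes with an intensity trend, group as the only term) tested all of them, and p-values were adjusted by Benjamini-Hochberg and called under 0.05. The prior degrees of freedom were infinite as deposited and 6.76 after quantile normalization. The fit was tested on simulated data. Symbols came from the platform annotation of 2016, in which 41091 probe sets carry 1 symbol, and older ones were matched through RefSeq synonyms. Promoter sequences are RefSeq's (GRCh38.p14). Members and lists were chosen with earlier results of these data known. All members may be named; of each other interferon list up to 4 tested genes with the smallest p are named, and DTX3L and the single marker genes were chosen after their values were seen. Exact permutation of 4 arrays cannot give p below 0.333. Alternatives were other pseudocounts, dim filters and normalizations, no trend, the replicate number as a term, no _x_at probe sets, the mean over probe sets, and leaving out each array.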

Additional observations from a re-analysis of the deposited data

How the results depend on the processing

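Of 264 recalculated changes for the 19 members past the threshold on either scale, 215 kept direction and call, 41 lost the call, 7 gained it and 1 turned direction with no call on either side (SP110, -0.22 to 0.05 with 1 array left out, the latter without control replicate 1). Members lower numbered 4 as deposited, 9 after quantile normalization, 0 by limma with no filter on dim probe sets (4 at an unadjusted p under 0.05) and 1 with the replicate block. Members higher numbered 4 with the replicate block, against 10. Other pathway genes lower numbered 3 with the filter at the 60th percentile and 23 after quantile normalization, and 4 were higher with the replicate block, against 31. The members' median log2 change was 0.40 with the filter at the 60th percentile, -0.25 after quantile normalization and 0.15 without _x_at probe sets. Probe sets past the threshold numbered 7293 as deposited, 4395 with no filter, 1901 with the replicate block, 12902 with median centring and 11073 with quantile normalization. With the replicate block DLEU1 kept its change of -1.04 at adjusted p = 0.162. Same-numbered arrays share only a number: their deviations correlated at -0.052 as deposited and -0.014 after quantile normalization. IRF8 turned to -0.17 after quantile normalization. Leaving out 1 array gave 2 to 13 members higher, 0 to 4 lower, a median of -0.07 to 0.12, 1 to 37 other pathway genes higher, 3 to 6 lower, 1060 to 8463 probe sets and DLEU1 changes of -1.24 to -0.83. Causes were not tested. With no detection calls, signal over background is unknown and limits every dim member. A pseudocount of 64 in place of 16 moved dim genes by over 1.5 times while their calls held: IFIT5 to 0.90, XAF1 to 0.78, IFITM2 to -0.60, PARP12 to -0.42, IFNA10 to -0.52, IFNB1 to -0.64, RNF135 to -0.80 and TRIM5 to -0.77. With a pseudocount of 4 RNF135 had -3.05, and IFNB1 was below the dim filter and not tested.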

Other observations

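The genes beside the called members are given here for 5 of the called members, chosen after their values were seen. For each called member, up to 5 tested genes on each side in RefSeq order were taken as neighbours. Around BST2, which had a log2 change of 1.28, 10 neighbours had a median of 0.11, and 1 of them was lower by limma as deposited while the others did not pass; after quantile normalization the median was -0.18 with 3 lower. Around XAF1 (1.22) the median was 0.03, with 2 of 10 higher (0.04, 2 higher and 1 lower after quantile normalization). LAP3 (0.75) lay among genes with a median of -0.60, of which 3 were lower and the others did not pass (-0.54, 1 higher and 4 lower after quantile normalization). PARP12 (-0.82) lay among genes with a median of 0.66, of which 6 were higher and 1 lower (0.34, with the same counts after quantile normalization). Around IFITM2 (-1.18), near the end of chromosome 11, 8 neighbours had a median of -0.35, and 1 of them was lower while the others did not pass (-0.31, with 2 lower, after quantile normalization). The neighbours of IFITM2 include its close copies IFITM1 and IFITM3 (both -0.41), and whether their signals are shared was not tested. Of all tested genes 20.3% were higher and 5.74% lower as deposited, and 20.7% and 20.6% after quantile normalization.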
